A study of Mus musculus with 18 samples.

Results

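The conjugating enzymes described here are the UDP-glucuronosyltransferases (UGTs), the cytosolic sulfotransferases (SULTs), the soluble glutathione S-transferases (GSTs) and the microsomal glutathione S-transferases (MGSTs). Members were chosen by gene symbol among genes read by a probe set annotated to 1 gene only, and the set with the highest mean over all 18 arrays stood for a gene. This gave 46 genes of 18193: 10 UGTs, 13 SULTs, 20 GSTs and 3 MGSTs. The series followed male C57BL6 mice of 20 g after an intraperitoneal injection of D-galactosamine (GalN, 4.5 g per kg), a toxin that injures hepatocytes, and asked how the kidney responds during massive liver necrosis. Liver and kidney were taken 24 h after GalN, 48 h after GalN, and 24 h after saline (sham). Each of the 6 groups has 3 arrays, lettered A, B and C, and no sham animals were taken at 48 h, so a difference between 48 h and sham also spans different times after injection. The strain, the sex and the saline perfusion of the organs before RNA was taken are common to all groups. The labels give 3 animals per group, but wording in the protocol could also mean pooled RNA, and if the arrays are not separate mice the p-values measure only the spread between arrays.

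These enzymes attach a polar group to drugs, hormones, bile acids and reactive compounds so that they can leave the cell and the body. UGTs transfer a sugar, mostly glucuronic acid carried by UDP-glucuronate. SULTs transfer sulfate from PAPS, the activated form of sulfate, and GSTs and MGSTs transfer glutathione to electrophiles such as products of lipid peroxidation. Liver is rich in all of them, and the proximal tubule of the kidney holds its own set. GalN enters the galactose pathway of hepatocytes and is converted to UDP-sugars, which draws on the uridine nucleotides from which UDP-glucuronate is also made.

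All levels below are log2 gcRMA values, so a difference of 1 is a 2-fold difference. The lowest value on the arrays was 2.21, and between 46.8% and 48.7% of each array was within 0.1 of that value. A gene with all 3 arrays of a group less than 1 above it is called at the floor in that group. A fold against readings at the floor, or against readings that recur exactly in another array, is given as "at least". A level can be compared between groups for 1 gene, but not between genes, since each probe set has its own brightness. Hepatocyte markers averaged 13.83 to 14.08 per array in sham livers and 7.36 to 7.53 in sham kidneys, and proximal tubule markers 3.86 to 3.99 and 14.09 to 14.25, as the tissue labels state. Arrays of 1 group correlated with r of 0.983 to 0.998. Liver 48 h array C stood apart. The gap between its 3' and 5' actin probe sets was 2.56, against 1.48 to 1.86 in sham livers. The counts of members called at 48 h that use this array, with the calls that change, are given with and without it. Results at 48 h for other gene lists, cell type markers and probe sets shared by several genes are given only with it. In whole tissue, fewer cells of a type and less RNA per cell cannot be told apart.

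In sham animals the families were divided between the organs. Of the 39 members tested, 25 were higher in sham liver than in sham kidney and 10 were lower (limma over all 18 arrays, called at an adjusted p under 0.05). Over all 12397 genes tested, 19% were called higher and 28.9% lower. A member entered this test if it passed the filter on low values in either organ, so those read in only 1 of them had to differ, and the count describes the members without supporting a claim about them. 6 members were at the floor in all 18 arrays, namely Sult1c1, Sult2a2, Sult2b1, Gsto2, Gstt4 and Mgst2, and Sult3a1 rose above it in 1 array only (4.20, sham liver B).

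**Figure D1:**
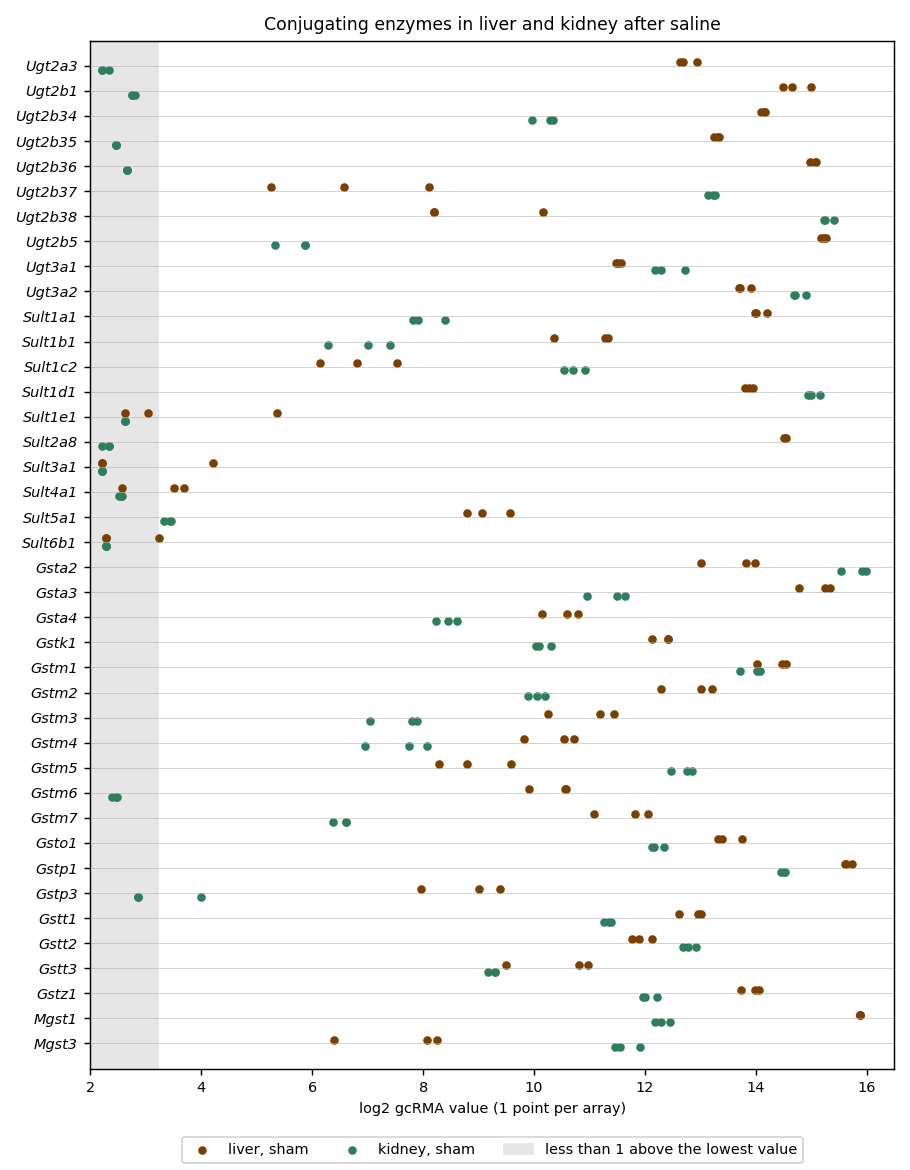
Log2 gcRMA values of the 40 members that were above the floor in at least 1 of the 18 arrays, with 1 point per array for the 3 sham livers and the 3 sham kidneys. The grey band covers values less than 1 above the lowest value of 2.21. Ugt2a3, Ugt2b1, Ugt2b35, Ugt2b36, Sult2a8 and Gstm6 lie in that band in kidney and at 9.90 or more in liver.

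Among the Ugt2b genes, whose products glucuronidate steroids, bile acids and drugs, some were far higher in liver and others far higher in kidney. Ugt2b36 had 15.08, 15.07 and 14.98 in sham livers, against 2.65 in each sham kidney, which is at least 5370-fold higher in liver. Ugt2b1 was at least 3950-fold and Ugt2b35 at least 1840-fold higher in sham liver. Ugt2b38 ran the other way, with 8.19, 8.20 and 10.16 in sham livers, against 15.24, 15.24 and 15.41 in sham kidneys, 87.1-fold lower in liver (adjusted p = 3.19e-05). Ugt2b37 had 5.25, 6.56 and 8.11 in sham livers, against 13.26, 13.23 and 13.14 in sham kidneys, 94.8-fold lower in liver (adjusted p = 1.51e-04). For both of these genes the sham livers were scattered, while the sham kidneys lay close together, and no liver array reached the kidney values.

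Among SULTs, Sult2a8, a bile acid sulfotransferase of mouse liver, had 14.55, 14.52 and 14.53 in sham livers and was at the floor in sham kidneys, at least 4820-fold higher in liver (adjusted p = 9.67e-14). Sult1c2 was 14.9-fold lower in sham liver than in sham kidney. Sult1d1, a sulfotransferase of catecholamines, was high in both organs, with 13.81 to 13.95 in sham livers and 14.94 to 15.16 in sham kidneys. Among the glutathione transferases, Mgst3 was 16.8-fold and Gstm5 13.9-fold lower in sham liver, whereas Gstm6 was at least 239-fold and Mgst1 11.8-fold higher in sham liver. Gstm1 had 14.47, 14.55 and 14.01 in sham livers, against 14.02, 14.08 and 13.71 in sham kidneys, and the organs overlapped (adjusted p = 0.179).

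The Ugt2b genes lie on chromosome 5, with Ugt2a3 between Ugt2b37 and Ugt2b38. The upstream sequences of 3 of them are shown because they resemble each other, while Ugt2b5 was higher in liver and the other two in kidney. Ugt2b5 had 15.18, 15.23 and 15.26 in sham livers, against 5.88, 5.33 and 5.87 in sham kidneys, 742-fold higher in liver. The 250 bases before the annotated start (RefSeq, GRCm38.p6, minus strand) were 81.5% identical between Ugt2b38 and Ugt2b5, 72.6% between Ugt2b37 and Ugt2b5 and 84.8% between Ugt2b37 and Ugt2b38, in a global alignment. The median over all 28 pairs of the 8 Ugt2 genes was 48.9%. The windows are chr5:87254789-87255038 for Ugt2b37, chr5:87424204-87424453 for Ugt2b38 and chr5:87140341-87140590 for Ugt2b5, written 5′ to 3′ towards the gene. Capitals mark bases that are not aligned to the same base of Ugt2b5, 51 in Ugt2b37 and 38 in Ugt2b38; each window ends at its own gene's start, so those at the right end partly reflect starts that are not in register.
Ugt2b37: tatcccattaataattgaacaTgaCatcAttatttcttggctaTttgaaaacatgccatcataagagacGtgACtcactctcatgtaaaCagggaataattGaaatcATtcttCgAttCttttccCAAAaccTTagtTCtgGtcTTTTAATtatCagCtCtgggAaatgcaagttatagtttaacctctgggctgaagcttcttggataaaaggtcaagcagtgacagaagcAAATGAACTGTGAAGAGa
Ugt2b38: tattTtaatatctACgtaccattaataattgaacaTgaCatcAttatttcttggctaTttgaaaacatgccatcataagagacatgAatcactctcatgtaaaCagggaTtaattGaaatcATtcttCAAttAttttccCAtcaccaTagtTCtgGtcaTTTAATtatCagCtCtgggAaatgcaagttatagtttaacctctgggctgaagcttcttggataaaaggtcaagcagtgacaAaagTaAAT
Ugt2b5: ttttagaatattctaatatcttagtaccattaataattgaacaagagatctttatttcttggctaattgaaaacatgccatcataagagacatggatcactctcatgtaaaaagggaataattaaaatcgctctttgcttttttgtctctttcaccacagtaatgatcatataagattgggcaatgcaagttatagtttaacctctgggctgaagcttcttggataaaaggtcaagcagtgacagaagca
The likeness of these genes also bears on their probe sets, and whether a set reads a related transcript was not tested.

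At 24 h after GalN most of the changes in liver were falls. Of the 39 members tested in liver, 14 fell and 2 rose against sham (limma on the 9 liver arrays), while 15% of all 12062 genes tested fell and 17.9% rose. The median change of the members was -0.48, against 0.01 over all genes. By family, 4 of 10 UGTs fell and 1 rose, 4 of 9 SULTs fell, 6 of 18 GSTs fell and 1 rose, and neither of the 2 MGSTs tested was called. The rank product test, by permutation, called 3 members, and Ugt2b35 (permutation adjusted p = 0.475) and Gsta4 (permutation adjusted p = 0.495) were not among them, nor were Gstt2 and Gstt3. With limma, 10 members were called without 24 h array C, without sham array A, or without sham array B. Hepatocyte markers averaged 13.39 to 13.54 per array at 24 h and 13.83 to 14.08 in sham livers, with 2 of 8 called lower and Ass1 at the floor at 24 h. Macrophage markers averaged 9.87 to 10.25 at 24 h and 8.01 to 9.08 in sham (6 of 10 called higher), and endothelial markers 6.76 to 7.99 and 5.91 to 5.99 (6 of 9 called higher). The part of these shifts in the results was not tested.

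**Figure D2:**
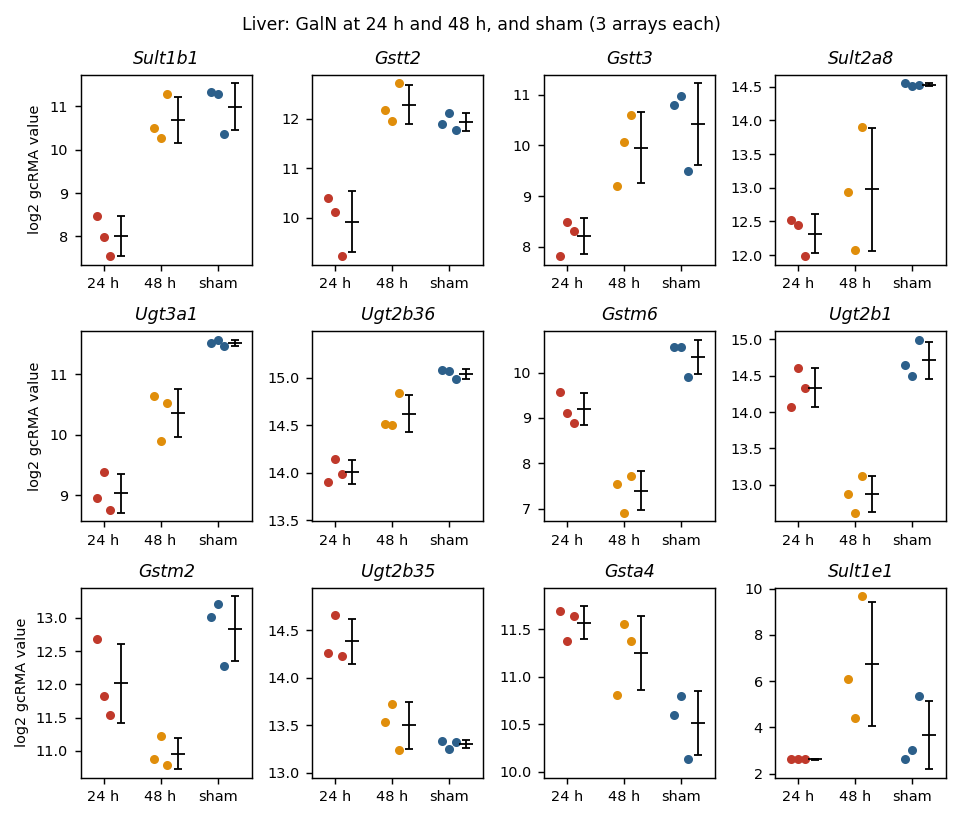
Log2 gcRMA values in liver of 12 members, with 1 point per array for 24 h after GalN, 48 h after GalN and sham (3 arrays each) and a bar for mean ± SD. Each panel has its own vertical range. Sult1b1, Gstt2 and Gstt3 were lowest at 24 h, Gstm6 and Ugt2b1 were lowest at 48 h, and Ugt2b35 was high at 24 h.

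Neighbouring UGT genes moved in opposite directions. Ugt2b35 had 14.26, 14.66 and 14.23 at 24 h, against 13.34, 13.25 and 13.32 in sham livers, and rose 2.11-fold (adjusted p = 0.00232). Ugt2b36, the next member along the chromosome, had 13.90, 14.15 and 13.98 at 24 h, against 15.08, 15.07 and 14.98 in sham livers, and fell by 1.03 on the log2 scale (SE 0.11, adjusted p = 7.87e-04). In neither gene did the groups overlap. Ugt2b5, next after Ugt2b36, fell 1.6-fold (adjusted p = 0.00985). Ugt2a3 fell 2.36-fold (adjusted p = 0.0499), a call lost in 7 of the 9 fits without 1 array, those without any 24 h or sham array or 48 h array B (adjusted p up to 0.137). Ugt3a1, whose human counterpart transfers N-acetylglucosamine rather than glucuronic acid, had 8.96, 9.38 and 8.75 at 24 h, against 11.52, 11.58 and 11.48 in sham livers. It fell 5.63-fold (log2 change -2.49, SE 0.23, adjusted p = 4.39e-04), and its second probe set fell by 2.13. Ugt2b34 (13.70 to 14.17 at 24 h, 14.10 to 14.17 in sham livers) and Ugt2b1 (14.07 to 14.60 and 14.50 to 14.99) were not called.

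The largest fall was that of Sult1b1, a sulfotransferase of thyroid hormones and phenols. It had 8.48, 7.996 and 7.56 at 24 h, against 11.33, 11.29 and 10.36 in sham livers, and fell 7.91-fold (log2 change -2.98, SE 0.39, adjusted p = 0.00154). Sult2a8 had 12.52, 12.45 and 11.99 at 24 h, against 14.55, 14.52 and 14.53 in sham livers, and fell 4.64-fold (adjusted p = 0.00651). All 24 h arrays of both genes lay below all sham arrays. Sult1c2 fell at least 3.76-fold (adjusted p = 0.0277), a call lost without any single 24 h array or without sham array A or B (adjusted p up to 0.0819). Sult1d1 fell 1.79-fold (adjusted p = 0.0307), lost without 24 h array A or C or any sham array (up to 0.0928). Sult1a1, the main phenol sulfotransferase, had 14.05, 13.32 and 13.55 at 24 h and 13.98 to 14.20 in sham livers, overlapping and not called (adjusted p = 0.406).

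Among the GSTs, the theta, mu and zeta classes supplied the falls and the alpha class the rise. Gstt2 had 10.40, 10.12 and 9.22 at 24 h, against 11.90, 12.12 and 11.77 in sham livers, and fell 4.04-fold (adjusted p = 0.0037). Gstt3 had 7.82, 8.49 and 8.32 at 24 h, against 10.80, 10.97 and 9.50 in sham livers, and fell 4.65-fold (adjusted p = 0.0127). Neither gene overlapped between the groups. Of the 7 mu-class genes, Gstm4, Gstm6 and Gstm7 fell 2.21-fold to 3.13-fold, and Gstm1 was not called. Each of these 3 calls was lost without 24 h array C or sham array A or B, that of Gstm4 also without 24 h array A and those of Gstm6 and Gstm7 without 24 h array B (adjusted p up to 0.102). Gstz1, which also isomerises maleylacetoacetate in tyrosine breakdown, fell 2.45-fold (adjusted p = 0.00542). Gsta4, which conjugates the lipid peroxidation product hydroxynonenal, had 11.69, 11.38 and 11.64 at 24 h, against 10.60, 10.80 and 10.14 in sham livers, and rose 2.08-fold (adjusted p = 0.014). Gstp1 (15.57 to 15.73 at 24 h, 15.62 to 15.74 in sham livers) and Mgst1 (15.71 to 15.80 and 15.87 to 15.89) were not called. A second, dim set of Mgst1 was at the floor in all 24 h livers, against 4.67 to 5.28 in sham livers, and was called lower when every set was tested (adjusted p = 0.0011). Gsta3, the brightest alpha-class set in liver, had 15.40, 14.64 and 13.89 at 24 h and 15.33, 15.25 and 14.78 in sham livers, overlapping and not called.

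Genes that supply the co-substrates moved in both directions in 24 h livers, as did all genes tested there, of which 17.9% rose and 15% fell. The list counts are descriptions and were not tested against those shares. Of 10 genes of UDP-glucuronate supply 3 rose and 3 fell: Ugdh, which makes UDP-glucuronate, rose to 13.47 ± 0.23 at 24 h, against 12.36 ± 0.13 in sham livers (SD, n = 3; adjusted p = 0.0242 with limma), and Galt, of the galactose pathway, fell 3.2-fold. Of 9 genes of PAPS and sulfate supply 3 fell and 1 rose. The sulfate transporter Slc26a1 fell 28.1-fold and Papss2, a PAPS synthase, fell 2.08-fold. Of 16 glutathione genes 3 rose and 4 fell. Gclc, the catalytic subunit of the rate-limiting enzyme of glutathione synthesis, rose 8.23-fold (adjusted p = 0.0028), while Cth and Cbs, which make cysteine from homocysteine, fell 7.84-fold and 6.65-fold.

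The other genes of conjugation and its control are read from lists too, beside the same shares of all genes (17.9% rose and 15% fell). Of 12 other conjugating or related enzymes 8 fell, led by Nat8 (9.07-fold), and only the epoxide hydrolase Ephx1 rose (2.77-fold). Of 13 transport genes 2 rose and 4 fell. The uptake transporter Slco1b2 fell 4.85-fold, the efflux pump Abcc4 rose at least 6.48-fold, and the canalicular pump Abcc2 was not called. Of 8 deconjugating genes 3 fell and 1 rose. Of 13 targets of the oxidative stress factor NRF2 outside these families 7 rose and 0 fell, with Cbr3 at least 144-fold, Srxn1 29-fold, Hmox1 12.7-fold and Nqo1 5.12-fold higher. Gclc belongs to this list and to the glutathione list. Among 14 regulators Nfe2l2, which encodes NRF2, rose 3.49-fold. The drug-sensing receptor gene Nr1i3 fell 3.93-fold and the estrogen receptor gene Esr1 7.89-fold.

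At 48 h the calls in liver were again falls. Of 39 members tested, 10 fell and 0 rose against sham (limma), while 3.94% of all genes fell and 6.25% rose. At an unadjusted p under 0.05, 19 members differed in either direction, and the rank product test called 8. Without 48 h array C, 16 members were called lower: these 10 and Ugt2a3, Ugt2b36, Sult1a1, Sult1c2, Sult2a8 and Gstk1. Without sham array B 3 were called, without 48 h array A or sham array A 5, and without sham array C 6. Hepatocyte markers averaged 13.37 to 13.69 at 48 h and 13.83 to 14.08 in sham livers, macrophage markers 9.52 to 9.85 and 8.01 to 9.08 (3 of 10 called higher), and endothelial markers 6.34 to 6.81 and 5.91 to 5.99 (1 of 9, Lyve1, called higher). The part of these shifts was not tested.

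Gstm6 had 7.54, 6.91 and 7.73 at 48 h, against 10.55, 10.57 and 9.90 in sham livers, and fell 7.72-fold (log2 change -2.95, SE 0.30, adjusted p = 0.00467). Ugt2b1 had 12.88, 12.62 and 13.12 at 48 h, against 14.65, 14.50 and 14.99 in sham livers, and fell 3.58-fold (adjusted p = 0.0049). In both, all 48 h arrays lay below all sham and all 24 h arrays. Ugt3a2 fell 2.13-fold (adjusted p = 0.00994), Gstp1 1.42-fold (adjusted p = 0.0145) and Mgst1 1.24-fold (adjusted p = 0.0135). The second set of Mgst1 had 3.48, 2.24 and 2.34 at 48 h, of which 2 readings were at the floor.

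Of the 10 calls at 48 h, those of Gstm6, Ugt2b1 and Ugt3a2 were kept in every fit without 1 array. That of Mgst1 was lost without sham array B (adjusted p = 0.057), and that of Gstp1 without 48 h array A or sham array B (up to 0.0502). Gstt1 fell 1.95-fold (adjusted p = 0.0409), lost without 24 h array B or C, 48 h array A or B, or any sham array (up to 0.13). Gstm2 had 10.87, 11.22 and 10.78 at 48 h, against 13.02, 13.21 and 12.28 in sham livers, and fell 3.68-fold (adjusted p = 0.02), a call lost without 48 h array A or sham array A or B (adjusted p up to 0.0738). Sult5a1 fell 4.82-fold (adjusted p = 0.0358), lost without 24 h array C, 48 h array A or B, or any sham array (up to 0.115). Gstm7 fell 3.95-fold (adjusted p = 0.0405), lost in 7 of the 9 fits without 1 array (up to 0.128), those without 24 h array B or C, 48 h array A or B, or any sham array. Ugt3a1 fell 2.25-fold (adjusted p = 0.0235), lost without any single sham array (up to 0.0822). In Gstt1, Gstm2, Sult5a1, Gstm7 and Ugt3a1 all 48 h arrays lay below all sham arrays. These genes were already picked as called in the same arrays, so this does not offset the lost calls.

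Some members varied widely between livers. Sult1e1, the estrogen sulfotransferase, had 6.09, 4.42 and 9.67 at 48 h and 2.62, 3.04 and 5.36 in sham livers, and it was at the floor in all 3 livers at 24 h (2.62, 2.65 and 2.62). Array C at 48 h was the highest, and the 48 h and sham groups overlapped (adjusted p = 0.204). Ugt2b37, the gene of high kidney level, had 10.15, 10.05 and 10.31 at 48 h, against 5.25, 6.56 and 8.11 in sham livers, a change of 3.53 that was not called (adjusted p = 0.196), with 4.34, 8.61 and 10.48 at 24 h. Its 48 h livers all lay above its sham livers, but the spread within the sham and 24 h groups was several units. Mgst3 changed by 1.69 at 48 h and was not called (adjusted p = 0.142).

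Between the times, 8 members were higher at 48 h than at 24 h in liver and 6 were lower (limma), against 14.7% and 13.2% of all genes. Without 48 h array C, 6 were higher and 9 lower. Sult1b1 had 10.50, 10.28 and 11.30 at 48 h, against 7.56 to 8.48 at 24 h, and was 6.41-fold higher (adjusted p = 0.00299). Gstt2 had 12.17, 11.96 and 12.72 at 48 h, against 10.40, 10.12 and 9.22 at 24 h, and was 5.17-fold higher (adjusted p = 0.0026). Neither was called against sham at 48 h, where their arrays overlapped those of sham livers. Gstt3 was 3.37-fold and Gstm4 2.59-fold higher at 48 h, but the call of Gstt3 was lost in 6 of the 9 fits without 1 array (any 24 h array, 48 h array B or C, or sham array A; adjusted p up to 0.105) and that of Gstm4 without 24 h array C or 48 h array A (up to 0.0503). Ugt3a1, Sult1d1, Gstz1 and Ugt2b36 were also higher. Without 48 h array C, Gstt3 (adjusted p = 0.09) and Gstz1 (adjusted p = 0.0876) were not called. In that fit Gstk1 (adjusted p = 0.0157), Gstt1 (adjusted p = 0.029) and Sult1a1 (adjusted p = 0.0499) were also called lower.

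In the other direction, Gstm6 was 3.47-fold lower at 48 h than at 24 h (adjusted p = 0.00473) and Ugt2b1 2.75-fold lower (adjusted p = 0.00234). Ugt2b35 had 13.53, 13.72 and 13.24 at 48 h, against 14.26, 14.66 and 14.23 at 24 h, 1.84-fold lower (adjusted p = 0.00607). Its 48 h arrays overlapped sham. Ugt3a2, Gstp1 and Mgst1 were lower by 1.14-fold to 1.66-fold. The calls of Mgst1 and Gstz1 were each lost in 6 of the 9 fits without 1 array, and that of Sult1d1 without 24 h array A or C (adjusted p up to 0.104).

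In the list of conjugate transporters at 48 h, 3 of 13 genes rose and 4 fell against sham liver, while 6.25% of all genes rose and 3.94% fell. Slco1a1, an uptake transporter of organic anions, fell 18.8-fold and Slc22a7 6.34-fold, whereas Abcc3, a basolateral efflux pump, rose 2.54-fold and Abcc4 at least 6.37-fold. Of the 13 NRF2 targets 2 rose and 0 fell, Nqo1 (5.02-fold) and Cbr3 (at least 21-fold). Gclc had 11.92 ± 1.00 at 48 h and 12.08 ± 0.35 in sham livers (SD, n = 3) and was not called. Nr1i3 rose 2.35-fold (adjusted p = 0.0411 with limma). Of 9 genes of PAPS and sulfate supply 2 fell, Slc26a1 (6.8-fold) and the sulfite oxidase gene Suox (2.59-fold), and Ugdh, Papss2 and Abcc2 were not called.

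**Figure D3:**
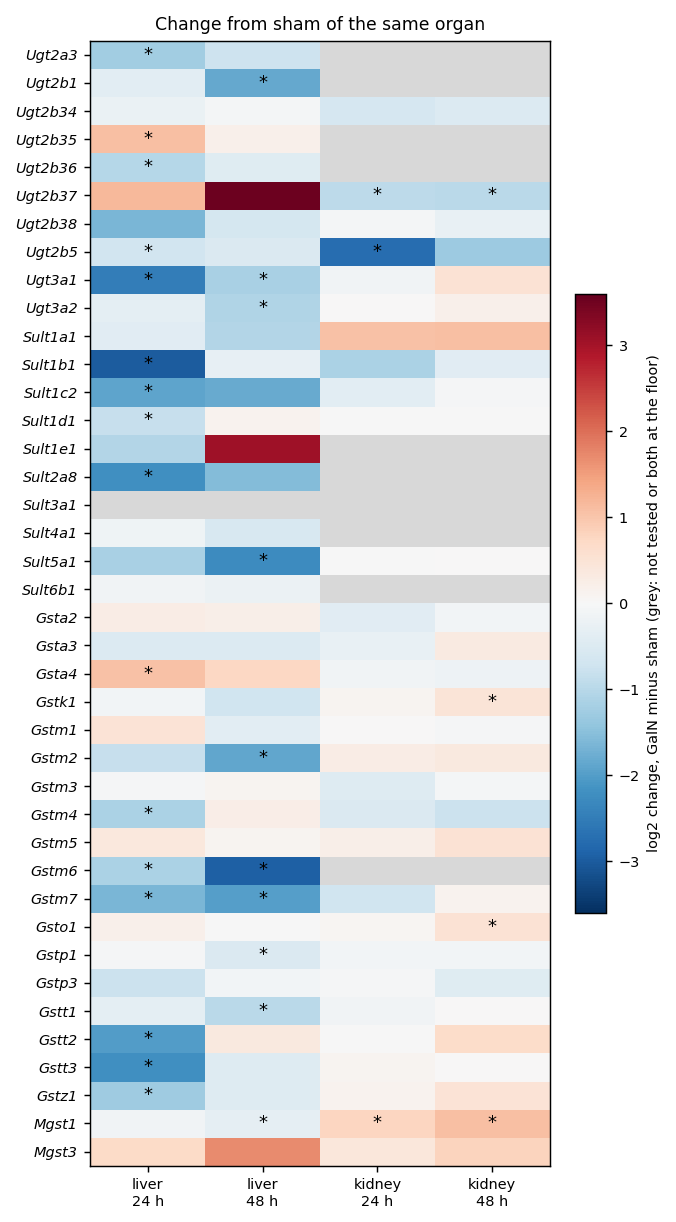
Log2 change from sham of the same organ for the 40 members above the floor in at least 1 array, in liver and kidney at 24 h and 48 h after GalN (blue lower, red higher). An asterisk marks an adjusted p under 0.05 with limma, and grey marks members not tested or at the floor in both groups. Liver holds 16 asterisks at 24 h and 10 at 48 h, and kidney 3 and 4.

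In kidney few members were called. At 24 h, 2 of the 36 tested fell and 1 rose (limma on the 9 kidney arrays), against 3.09% of all 11990 genes that fell and 2.21% that rose. At 48 h, 1 fell and 3 rose, against 1.46% and 1.31%. Of the 13 SULTs 7 were tested in kidney, and none was called at either time. The filter also let through members without a measurable signal there. Sult1e1, Sult4a1, Ugt2b1, Ugt2b35, Ugt2b36 and Gstm6 were tested although every kidney group read them at the floor. Sult5a1 had 3.32 to 3.46 in kidney, with readings that recurred between arrays. For these members the lack of a call does not show a lack of response. At an unadjusted p under 0.05, 3 SULTs differed at 24 h and 1 at 48 h, and the rank product test gave 1 member of any family at 24 h and 2 at 48 h. No member was called between 48 h and 24 h, where 0.959% of all genes were higher and 0.659% lower. There, 8 members had an unadjusted p under 0.05, and the rank product test called 1. The calls in kidney rest on few arrays. At 24 h, 0 members were called without sham array B, and 1 without 24 h array B, 48 h array B or C, or sham array A or C. At 48 h, 0 were called without 48 h array B or C or sham array B or C, 1 without sham array A, and 2 without 24 h array B or C or 48 h array A. Proximal tubule markers averaged 13.94 to 14.20 per array at 24 h, 14.06 to 14.20 at 48 h and 14.09 to 14.25 in sham kidneys. Distal nephron and collecting duct markers averaged 11.48 to 11.85 at 24 h and 11.30 to 11.63 at 48 h, against 10.44 to 10.89 in sham kidneys, without overlap, with 2 of 7 called higher at 24 h (Scnn1b and Atp6v1b1) and 1 at 48 h (Atp6v1b1). The part of that shift in the results was not tested.

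**Figure D4:**
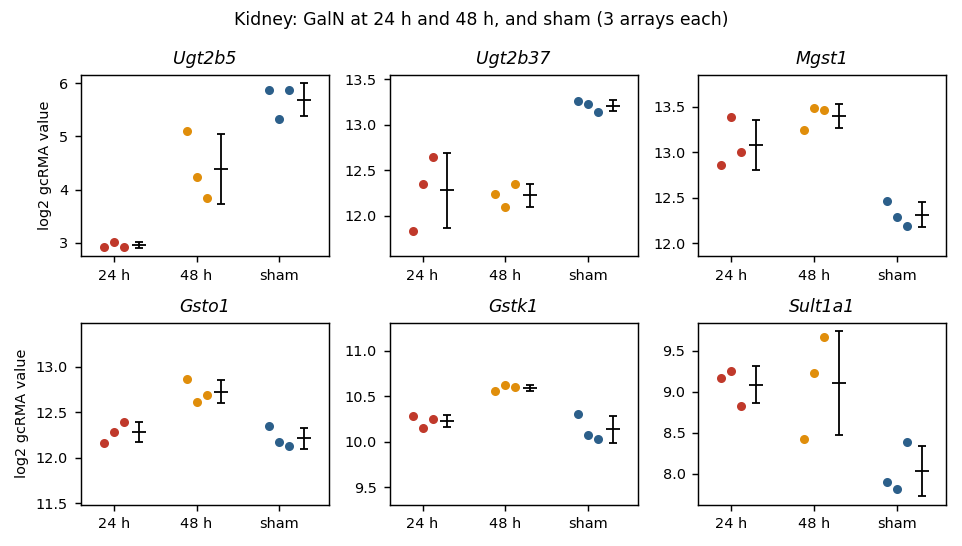
Log2 gcRMA values in kidney of 6 members, with 1 point per array for 24 h after GalN, 48 h after GalN and sham (3 arrays each) and a bar for mean ± SD. Each panel has its own vertical range. Ugt2b5 and Ugt2b37 lie below sham at 24 h and Mgst1 above it, while Sult1a1, which was not called, lies above sham in every array.

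Ugt2b5 had 2.92, 3.02 and 2.92 in kidney at 24 h, against 5.88, 5.33 and 5.87 in sham kidneys, and fell at least 6.68-fold (adjusted p = 0.0166). The call was lost without sham array B (adjusted p = 0.0557). At 48 h it had 5.11, 4.23 and 3.83, between the other groups, and was not called against sham (adjusted p = 0.0807). Ugt2b37 had 11.84, 12.35 and 12.65 at 24 h and 12.24, 12.09 and 12.34 at 48 h, against 13.26, 13.23 and 13.14 in sham kidneys. All treated arrays lay below all sham arrays, and it fell 1.91-fold at 24 h (adjusted p = 0.0403) and 1.98-fold at 48 h (adjusted p = 0.0468). Both calls were lost in 7 of 9 fits without 1 array, up to 0.129 at 24 h (without 24 h array B, any 48 h array or any sham array) and 0.153 at 48 h (without 24 h array B, any 48 h array or any sham array). In the fit of all 18 arrays, where the spread of the livers enters, the adjusted p was 0.792 at 24 h and 0.865 at 48 h. Ugt2b38 had 15.15 to 15.27 at 24 h, 14.95 to 15.06 at 48 h and 15.24 to 15.41 in sham kidneys and was not called.

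Mgst1, a membrane-bound transferase and peroxidase of the endoplasmic reticulum and outer mitochondrial membrane, had 12.86, 13.39 and 13.00 at 24 h and 13.25, 13.49 and 13.46 at 48 h, against 12.46, 12.29 and 12.19 in sham kidneys. All treated kidneys lay above all sham kidneys. It rose 1.7-fold at 24 h (adjusted p = 0.0355) and 2.12-fold at 48 h (adjusted p = 0.0234). The call at 24 h was lost in 7 of 9 fits without 1 array (24 h array B or C, 48 h array B or C, or any sham array; adjusted p up to 0.116), and that at 48 h in 5 (48 h array B or C, or any sham array; up to 0.0919). The 250 bases before 1 of its 2 annotated starts (GRCm38.p6, chr6:138140277-138140526, plus strand) are shown because they hold a match, in capitals, to TGACNNNGC, the core of the antioxidant response element that NRF2 binds, read on the opposite strand.
Mgst1: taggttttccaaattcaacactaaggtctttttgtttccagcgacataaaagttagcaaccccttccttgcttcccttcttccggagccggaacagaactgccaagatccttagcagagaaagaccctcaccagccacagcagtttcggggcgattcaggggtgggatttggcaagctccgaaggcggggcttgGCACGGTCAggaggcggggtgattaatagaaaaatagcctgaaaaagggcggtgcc
The match begins at base -56 from the start. Promoter windows of 250 bases before to 50 after the start were found for 41 of the 46 members. This motif, searched on both strands, was in 4 of the 41 (9.76%; Gsta3, Gstm5, Gstm7 and Mgst1) and in 14% of all genes with a window. GTTAAT, part of the site of the liver factor HNF1, was in 5 of the 41 (12.2%; Gsta3, Sult1a1, Sult1d1, Ugt2a3 and Ugt3a1) and in 8.24% of all genes. TNGCGTG, the core of the site of the dioxin receptor, was in 2 (4.88%; Gsta2 and Sult1d1) and in 5.84% of all genes. A match is a run of letters only.

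At 48 h, Gsto1 and Gstk1 rose in kidney as well. Gsto1, which reduces dehydroascorbate, had 12.87, 12.62 and 12.70 at 48 h, against 12.35, 12.17 and 12.13 in sham kidneys, and rose 1.43-fold (adjusted p = 0.0406). At 24 h this set had 12.17, 12.28 and 12.40, overlapping sham, and was not called. The second probe set of Gsto1 had 10.10, 9.79 and 9.49 at 24 h, against 8.61, 8.19 and 8.39 in sham kidneys, without overlap. That set rose by 1.40 at 24 h and by 1.05 at 48 h, so the 2 sets differ in the size and time of the change. Gstk1, the kappa-class enzyme of mitochondria and peroxisomes, had 10.56, 10.63 and 10.60 at 48 h, against 10.31, 10.08 and 10.03 in sham kidneys, and rose 1.37-fold (adjusted p = 0.0354). In the sets chosen, neither gene overlapped between 48 h and sham. Gstt2, which was not called, did not overlap either (13.24, 13.58 and 13.56 at 48 h, against 12.70, 12.78 and 12.93 in sham kidneys). Gsto1 and Gstk1, like Ugt2b37 and Mgst1, were picked as called in the same arrays. For these genes a lack of overlap does not offset the lost calls. The call of Gsto1 was lost in 8 of 9 fits without 1 array, all but that without 24 h array A (adjusted p up to 0.129), and that of Gstk1 in 6, those without 24 h array C, any 48 h array, or sham array B or C (up to 0.122). In the fit of all 18 arrays neither was called (adjusted p = 0.0991 for Gsto1 and 0.398 for Gstk1). Sult1a1 had 9.18, 9.25 and 8.83 at 24 h and 8.42, 9.23 and 9.67 at 48 h, against 7.90, 7.82 and 8.39 in sham kidneys, higher in every treated array but not called (adjusted p = 0.107 and 0.128).

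Few genes of the supply and regulator lists were called in kidney, where few genes were called in all. At 24 h 2.21% of all genes rose and 3.09% fell, and at 48 h 1.31% rose and 1.46% fell. The list counts were not tested against those shares. Of 10 genes of UDP-glucuronate supply 0 were called at 24 h and 1 at 48 h, Slc35b1, which fell 1.91-fold. Slc26a1 fell 2.13-fold at 24 h, and at 48 h Papss2 rose 1.77-fold while Papss1, the other PAPS synthase, fell 1.59-fold. Ggct, of glutathione turnover, fell 2.66-fold at 24 h and 2.54-fold at 48 h. Of the 13 NRF2 targets 2 fell at 24 h and 2 rose, so the called genes went in both directions. The genes that rose were Srxn1 (1.63-fold) and Nqo1 (1.24-fold), the latter one of the genes named whatever their values. None of the 14 regulators was called by limma in kidney at either time. Gclc, Ugdh and Abcc2 were not called in kidney.

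The difference between the responses of the organs was tested for the 36 members that passed the filter in both, as the change in kidney minus the change in liver. At 24 h, 11 members had a positive difference and 3 a negative one, against 14.2% and 17.1% of all 11655 genes. At 48 h, 14 had a positive difference and 0 a negative one (limma), against 4.58% and 8.84%. At an unadjusted p under 0.05, 21 members differed at 48 h in either direction. 9 were called without liver sham array B, and 14 without liver 48 h array C. Those 14 were not the same set: without that array Gstp1 was lost (adjusted p = 0.0676) and Gstz1 was gained (adjusted p = 0.0297). A positive difference means a smaller fall, or a larger rise, in kidney. All 4 called SULTs at 24 h, Sult1a1, Sult1b1, Sult1c2 and Sult1d1, were on that side, but of the 18 fits without 1 array the call was lost in 15 for Sult1c2, 8 for Sult1a1 and 4 for Sult1d1 (adjusted p up to 0.107). For Ugt2b35, Ugt2b36, Ugt2b1, Gstm6 and Sult5a1 the kidney readings were at the floor or recurred between arrays, so the difference only restates the change in liver.

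Among members measured in both organs, Ugt3a1 had the largest difference at 24 h. It had 11.91, 12.21 and 12.66 in 24 h kidneys, against 12.18, 12.29 and 12.73 in sham kidneys, overlapping, while it fell in liver without overlap, and the responses differed by 2.35 (SE 0.32, adjusted p = 9.23e-05). Gstt3 differed by 2.32 (adjusted p = 0.00329) and Gstt2 by 2.00 (adjusted p = 0.00105), with kidney arrays of both overlapping sham. Mgst1, which rose in kidney and fell slightly in liver at 48 h, differed by 1.40 at that time (adjusted p = 2.12e-04). Sult1a1 was not called within either organ at 48 h, with 12.31, 13.05 and 13.69 in 48 h livers, against 13.98 to 14.20 in sham livers, and higher readings in the treated kidneys. Its responses differed by 2.12 at that time (SE 0.48, adjusted p = 0.011). Without liver 48 h array C, its fall in liver was called (2.61-fold, adjusted p = 0.0298). Gstm2 differed by 2.22 at 48 h (adjusted p = 0.00908), and Gsta4, which rose in 24 h livers, by -1.18 at 24 h (adjusted p = 0.0112). Ugt2b5 fell in both organs at 24 h and further in kidney, by -2.06 in the difference (adjusted p = 6.24e-04), where its 24 h kidney readings were at the floor.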

How the data were processed

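Total RNA of liver and kidney was labelled and hybridised to 1 Affymetrix mouse array per sample, per the labels' protocols. The deposited table holds log2 values made by the authors with GCRMA, per the submitters' processing notes (version not given in the sources used here), and they were used as deposited. Of 45101 probe sets, 64 are controls, 34945 are named for 1 gene and 932 for several. Groups came from the labels. A gene entered the test of an organ when 3 or more of that organ's 9 arrays read it above their own median (percentile 50). The test was limma 3.58.1 (R 4.3.3) with an intensity trend, two-sided, on the 9 arrays of an organ, or on all 18 for comparisons between organs, with Benjamini-Hochberg adjustment over all genes tested and calls under 0.05. Every adjusted p is from limma unless a permutation is named. The fit was tested on simulated data. Arrays have no read depth, and 3 arrays per group limit the precision.

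The members, pathway lists and marker lists were chosen with earlier results of these data known. Named genes are the largest called changes of each comparison (up to 6 in each direction against sham, up to 4 otherwise), the brightest member of each family or class in an organ, up to 3 called genes of each other list, and Nqo1, Gclc, Ugdh, Papss2 and Abcc2. Others, such as Sult1e1 and Ugt2b37 in liver, were named after their values were seen. Alternatives were other filters, probe set rules, normalizations and variance options, a replicate block, other sets of arrays, a rank product test (100 permutations) and leaving out each array. Promoter sequences are from RefSeq (GRCm38.p6), aligned with Biopython 1.88.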

Additional observations from a re-analysis of the deposited data

Results flagged for a closer look

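For 11 named members the change in kidney minus the change in liver differed by limma. At 24 h the difference was 2.355 for Ugt3a1, 2.324 for Gstt3, 2.004 for Gstt2 and 1.851 for Sult1b1, and -2.063 for Ugt2b5, -1.181 for Gsta4 and -1.079 for Ugt2b35. At 48 h it was 2.957 for Gstm6, 2.294 for Sult5a1, 2.221 for Gstm2 and 2.121 for Sult1a1. Gstm6, Sult5a1 and Ugt2b35 were not measurably expressed in kidney, where their readings were at the floor or recurred between arrays.

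Probe sets shared by several genes of these families were outside the member rule. A set shared by Gsta1, Gsta2 and a predicted gene had 14.98, 15.35 and 14.78 in 24 h livers and 15.24, 15.47 and 14.85 in 48 h livers, against 13.99, 13.94 and 12.38 in sham livers. It rose by 1.600 at 24 h (limma adjusted p = 0.0326). The change at 48 h was 1.75 (adjusted p = 0.0568) and was not called. The set read for Gsta2 alone was not called at either time. All 3 sets shared by Ugt1a genes, which encode the UGTs of bilirubin and many drugs, fell in liver at 48 h, with changes of -0.505 (limma adjusted p = 0.00848), -0.564 (0.00521) and -0.638 (0.0314), and none was called at 24 h.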

How the results depend on the processing

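No call of a named member changed direction, 34 of the 48 named calls were kept in every fit without 1 array, and 26 in every alternative. Of the 29 named calls tested by rank product 17 were lost, and of the 48 named calls 9 were lost with no filter. Counts of members called moved by over 1.5 times as follows. In liver at 24 h (16 called) the rank product test gave 3. In liver at 48 h (10) array weights gave 24 and a fit of all 18 arrays 18. Between 48 h and 24 h in liver (14) the rank product test gave 3. In kidney at 24 h (3) the count was 1 with no filter, 1 with only the 6 arrays compared, 1 by rank product, 5 with the mean of a gene's probe sets and 6 with every probe set. In kidney at 48 h (4) it was 1 with no filter, 8 with a filter at a value of 5, 9 with array weights, 2 with all 18 arrays, 2 with the 6 arrays compared and 2 by rank product. Between 48 h and 24 h in kidney (0) it was 1 with the filter at 5, 1 with every probe set, 1 after quantile normalization, 3 after median centring, 1 with all 18 arrays and 1 by rank product. For the difference of responses at 48 h (14) array weights gave 24. The causes were not tested.

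Leaving out 1 array gave 10 to 17 calls in liver at 24 h, 3 to 16 at 48 h and 10 to 16 between them, 0 to 3 in kidney at 24 h, 0 to 4 at 48 h and 0 to 0 between them, 34 to 36 between the sham organs, and 11 to 15 and 9 to 15 for the differences of responses at 24 h and 48 h. The array letters were not shown to pair the samples: the correlation of deviations between groups with the same letter ran from -0.111 to 0.077 within liver, -0.125 to 0.230 within kidney, and -0.072 to 0.274 between the organs. With the letter as a replicate block, 5 members were called in liver at 48 h, 1 in kidney at 24 h and 0 in kidney at 48 h, and the other counts stayed within 1.5 times.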
